A study of Mus musculus with 96 samples.

Results

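Suz12 occupancy was compared between wild-type (WT) neurons and neurons lacking the DNA glycosylases Mutyh, Ogg1 or both, over 771 of the 775 Suz12 consensus peaks found in NeuN+ hippocampal nuclei. The members were all peaks outside an interval of dense reads on chromosome 2 (chr2:98662501-98667360, GRCm38), where the remaining 4 peaks, annotated to Lrrc4c, lay. Each knockout was set against WT with the replicate number as a block in the fit, that is as a term that takes up what libraries of the same number have in common. The study asked whether losing one or both glycosylases alters the histone marks and Suz12 occupancy of neurons and non-neuronal cells, and across its 6 tables (H3K4me3, H3K27me3 and Suz12 in NeuN+ and in NeuN- nuclei) it holds 22815 consensus peaks. The 4 genotypes were WT, Mutyh-/-, Ogg1-/- and the double knockout Mutyh-/- x Ogg1-/- (DKO), all male C57BL/6N mice of 6 months, and the knockouts were constitutive, so that every cell of the animal lacked the gene. Each of the 3 replicates of a genotype was a pool of hippocampi from 5 animals, whose nuclei were sorted on NeuN, the neuronal nuclear protein encoded by Rbfox3. P-values therefore measure the spread between pools.

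Suz12 is a core subunit of Polycomb repressive complex 2 (PRC2), which methylates lysine 27 of histone H3 and holds genes of other cell types and of earlier development silent. In mammals PRC2 is found mainly at CpG-rich promoters, many of them of transcription factors that pattern the embryo. Ogg1 removes oxidised guanine (8-oxoguanine) from DNA, and Mutyh removes adenine that was paired with it during replication.

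The 771 peaks were annotated by the authors to 528 nearest genes, and 471 of them lay in promoters, 161 between genes, 65 in introns, 56 in exons, 14 in 3' UTRs and 4 in 5' UTRs. A peak with at least 50% of its bases marked as repeat in the GRCm38 sequence is called a repeat peak, of which there were 79, all but 2 outside promoters. The peaks are counting windows of 401 bp, with the exception of 1 Mir101c window of 772 bp, and their sequences differ widely. The central 300 bases of a non-repeat promoter peak held a median of 29 CpG dinucleotides, and 87.6% of these peaks held at least 15, against a median of 7 and 34.6% in the 300 bases around the start of all 32815 RefSeq promoters of this build. Repeat peaks had a median of 3. The stretches below are the central 300 bases (GRCm38.p6, plus strand, CpG in capitals) of the non-repeat promoter peaks with the smallest p in Ogg1-/- and in DKO and of the repeat peak with the smallest p in Mutyh-/-, at Dmbx1 (lower in Ogg1-/-, chr4:115939575-115939874, 22 CpG), Cyp1b1 (higher in DKO, chr17:79713987-79714286, 21 CpG) and a repeat whose nearest gene is Mir101c (lower in Mutyh-/-, chr9:3035904-3036203, 5 CpG).
Dmbx1: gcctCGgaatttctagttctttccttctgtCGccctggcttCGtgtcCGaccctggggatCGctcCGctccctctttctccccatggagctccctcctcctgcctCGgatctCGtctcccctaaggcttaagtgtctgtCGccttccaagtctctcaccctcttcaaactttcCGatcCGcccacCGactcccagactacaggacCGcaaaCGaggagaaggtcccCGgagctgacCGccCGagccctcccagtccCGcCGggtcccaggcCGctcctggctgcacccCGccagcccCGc
Cyp1b1: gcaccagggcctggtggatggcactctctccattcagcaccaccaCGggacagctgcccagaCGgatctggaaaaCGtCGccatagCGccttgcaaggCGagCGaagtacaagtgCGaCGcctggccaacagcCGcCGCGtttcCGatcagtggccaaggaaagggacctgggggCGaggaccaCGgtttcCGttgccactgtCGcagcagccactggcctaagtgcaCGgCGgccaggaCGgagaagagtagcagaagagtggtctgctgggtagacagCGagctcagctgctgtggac
Mir101c repeat: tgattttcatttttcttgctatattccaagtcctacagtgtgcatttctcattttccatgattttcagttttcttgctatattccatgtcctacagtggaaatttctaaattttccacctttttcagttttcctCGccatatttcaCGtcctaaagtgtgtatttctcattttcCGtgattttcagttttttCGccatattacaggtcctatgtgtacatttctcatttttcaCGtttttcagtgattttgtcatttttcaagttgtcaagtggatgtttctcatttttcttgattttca
The Dmbx1 and Cyp1b1 stretches have a GC content of 64.3% and 63%, and the Mir101c repeat one of 32.7%.

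The values are normalised reads, that is reads scaled by a single factor per library, and 1 read was worth between 0.788 and 1.34 of them. Reads in all peaks ranged from 6652 to 33035 per library and outside the chromosome 2 interval from 5445 to 21742, since that interval took 14.5% to 60.9% of a library's reads in peaks. Replicate 1 was the thinnest library of WT, Mutyh-/-, Ogg1-/- and DKO outside the interval. The NeuN label was checked with H3K4me3 from the same nuclei: 10 of 12 neuronal marker genes had a promoter peak, with a summed level of 677 to 900 CPM, and 2 of 15 glial and vascular markers did, with a summed level of 106 to 195, while 13 had none, among them Gfap, Mog and Cx3cr1. In NeuN- nuclei 0 of the 12 neuronal and 1 of the 15 glial and vascular markers had one. Gfap, Mog and Cx3cr1 had none there either, so a missing glial peak is no measure of purity. Neither Ogg1 nor Mutyh had a Suz12 peak in NeuN+ nuclei, so the deleted genes could not be checked in this table.

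Over all promoters together, Suz12 signal was lower in both single knockouts than in WT in each of the 3 same-numbered pairs, but the genotypes overlapped. Summed over the 469 non-repeat promoter peaks, WT gave 5061, 11257 and 9986 normalised reads in replicates 1, 2 and 3. The Mutyh-/- sums were 1768, 9385 and 6961, and the Ogg1-/- sums were 2545, 9218 and 6608. In DKO they were 3950, 9946 and 10587. Replicate 1 was the lowest library of every genotype, and the spread between replicates of a genotype exceeded the differences between genotypes. The log2 ratio of means to WT was -0.54 for Mutyh-/-, -0.52 for Ogg1-/- and -0.10 for DKO (exact permutation p = 0.5, 0.4 and 0.6, two-sided, n = 3 against 3, where the smallest possible p is 0.1). Promoter peaks without a single read numbered 56, 5 and 20 in the WT libraries and 133, 6 and 30 in those of Mutyh-/-. They numbered 117, 18 and 24 in Ogg1-/- and 32, 5 and 2 in DKO. Over the 79 repeat peaks the sums ran from 1215 to 1657 in WT, 945 to 1520 in Mutyh-/-, 602 to 1230 in Ogg1-/- and 749 to 1852 in DKO (exact p = 0.5, 0.2 and 0.6). In such bulk nuclei, fewer nuclei carrying Suz12 at a site and less Suz12 per nucleus cannot be told apart.

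**Figure D1:**
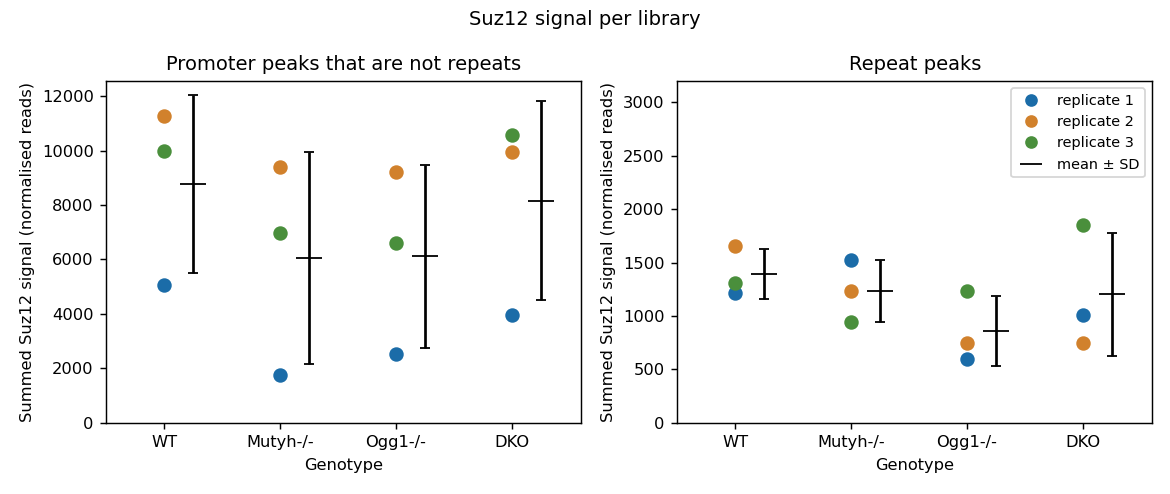
Summed Suz12 signal (normalised reads) of each library by genotype, over the 469 non-repeat promoter peaks (left) and the 79 repeat peaks (right). Points are the 3 replicates coloured by number, and bars show the mean ± SD. At promoters replicate 1 is the lowest library of each genotype, between 1768 and 5061.

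In Mutyh-/- neurons, Suz12 was lower at a set of promoters, among them those of Sox17, Tbx20, Esrp1 and Galr2, and higher at a few sites of which most lay outside promoters. A peak counted as a differentially enriched region (DER), by the study's own criterion, when its p before adjustment was below 0.05 and its log2 fold change exceeded 0.5 in size. Of the 771 peaks 103 were DERs (13.3% of all 775 peaks tested), 87 lower at 84 genes (11.2% of those tested) and 16 higher at 16 genes (2.06%). Values after ± beside fold changes are standard errors of that fit. No peak had an adjusted p under 0.05 in limma with the block (lowest 0.134), while 103 had an unadjusted p under 0.05. Without the block 39 peaks were called, 25 lower and 14 higher, of which 37 were among the 103, and 1 passed the adjusted threshold. Across the 771 peaks the log2 fold change had a median of -0.63, and 73.5% of peaks were below 0. This shift depends on the scaling: with TMM factors from the recovered reads the median was -0.09 and the calls were 25 lower and 28 higher, and with library size set to reads in peaks outside the chromosome 2 interval they were 31 lower and 22 higher. WT replicate 1 and Mutyh-/- replicate 1 weighed most on the count, which was 50 without the former and 51 without the latter.

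Sox17, a transcription factor of endoderm and blood vessel endothelium, had the smallest p of the non-repeat promoter peaks (chr1:4493089-4493489, 246 bp from the start site). Its Suz12 signal was 17.4, 28.7 and 6.71 in WT and 0, 3.11 and 3.04 in Mutyh-/-, resting on 13, 29 and 5 reads and on 0, 3 and 3 reads. In Ogg1-/- it was 2.97, 20.0 and 15.0, and in DKO 9.35, 29.2 and 12.6. All Mutyh-/- libraries were below all WT libraries, whereas the Ogg1-/- and DKO libraries overlapped WT. The log2 fold change of Mutyh-/- against WT was -2.66 ± 0.72 (lower in 3 of 3 pairs, adjusted p = 0.331), and with TMM scaling it was -2.47. For DKO against WT it was 0.00 ± 0.72 (adjusted p = 1). Sox17 has a second promoter peak at chr1:4492061-4492461, with 16.1, 23.8 and 18.8 normalised reads in WT and 5.74, 29.0 and 15.2 in Mutyh-/-. These libraries overlapped, and the second peak was not called (log2 fold change -0.45 ± 0.54, adjusted p = 0.685).

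Tbx20, a T-box factor of the developing heart, had its peak across its start site (chr9:24773893-24774293). The signal was 6.70, 11.9 and 38.9 in WT and 0, 6.21 and 0 in Mutyh-/-. Ogg1-/- libraries gave 0, 2.36 and 4.70, and DKO libraries 2.55, 26.1 and 10.2. Both single knockouts lay wholly below WT, and DKO overlapped it. The log2 fold change was -3.03 ± 0.92 in Mutyh-/- (adjusted p = 0.331) and -2.57 in Ogg1-/- (adjusted p = 0.367), each lower in 3 of 3 pairs, and -0.63 in DKO (adjusted p = 0.987). The Ogg1-/- call was lost without WT replicate 3, without Ogg1-/- replicate 2 and without replicate number 1 of every genotype.

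Esrp1, an epithelial regulator of splicing, had 9.39, 29.7 and 26.8 normalised reads in WT and 2.46, 9.32 and 0 in Mutyh-/- (chr4:11387905-11388305, log2 fold change -2.65 ± 0.77, adjusted p = 0.331). Galr2, a receptor for the neuropeptide galanin, had 13.4, 18.8 and 16.1 in WT and 0.82, 9.32 and 0 in Mutyh-/- (log2 fold change -2.67 ± 0.80, adjusted p = 0.331). At both promoters the Mutyh-/- libraries did not reach the lowest WT library, and each was lower in 3 of 3 pairs. The other peak of each gene was not called in Mutyh-/- (log2 fold changes -0.92 ± 0.69 at Esrp1 and -1.09 ± 0.95 at Galr2, adjusted p = 0.534 and 0.584). Of the peaks named by rule, the calls at Sox17, Tbx20, Esrp1 and the intergenic peak nearest Fcgr3, an Fc receptor gene of immune cells, held under all alternatives tried, as did 3 Mir101c repeats and the peak nearest Dux, 8 of 49 named peaks called in Mutyh-/-.

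Further transcription factor peaks lower in Mutyh-/- were those of Pax7 (neural crest and muscle precursors), Prdm12 (pain-sensing neurons) and Pitx3 (midbrain dopamine neurons), with log2 fold changes of -2.20, -2.03 and -2.72. The Pax7 peak, in an intron, had 18.8, 30.7 and 21.5 normalised reads in WT and 0, 13.5 and 9.13 in Mutyh-/-. Lhx5, a LIM homeobox gene of the forebrain, had 17.4, 25.7 and 20.1 in WT and 0, 3.11 and 15.2 in Mutyh-/- (log2 fold change -2.43 ± 0.85, adjusted p = 0.34). At both peaks all WT libraries exceeded all Mutyh-/- libraries, while the other 2 peaks of Pax7 were not called. Sox1 (neural progenitors), Gata2 (blood precursors), Isl2 (motor neurons) and Foxa1 (endoderm) were also lower DERs, with log2 fold changes from -2.56 to -2.07 (adjusted p from 0.34 to 0.369), and replicate 1 of Mutyh-/- had no read at any of these 4 peaks.

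Of the 16 higher DERs in Mutyh-/-, 2 were at non-repeat promoters and 5 were repeat peaks, and their median CpG count was 2. WT had few reads there, with a median WT level of 0.671 normalised reads. The peak nearest Dux, a gene family of the early embryo in tandem copies, had no read in any WT library and 7.38, 12.4 and 5.07 normalised reads in Mutyh-/- (chr10:58207746-58208146, 24529 bp from the start site). That is at least 6.77-fold higher against a floor of 3 reads over the WT group (adjusted p = 0.331). Peaks were kept when present in at least 2 of 3 replicates, so a window without WT reads entered through knockout libraries. The 0 in WT and the fold change at such windows follow in part from this choice and are a description only. An intronic peak of 2700054A10Rik on chromosome 17 was at 0 in WT and at 21.3, 6.21 and 3.04 in Mutyh-/-, at least 8.32-fold higher. Dux, Smok2a, Zfp981 and several other higher DERs lie in families of near-identical copies, where the placement of reads is uncertain.

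In Ogg1-/- neurons Suz12 was lower at a set of promoters, among them those of Dmbx1, Nr5a2, Foxl1 and the Wnt receptor gene Fzd5. Here 98 peaks were DERs (12.6% of the 775 tested), 84 lower at 81 genes (10.8%) and 14 higher at 12 genes (1.81%). By limma with the block no peak passed an adjusted p of 0.05 (lowest 0.176), and 98 had an unadjusted p under 0.05. Without the block 28 were called, 18 lower and 10 higher, 25 of them among the 98, and none passed the adjusted threshold. The median log2 fold change was -0.57 and became -0.09 with TMM scaling, which called 19 lower and 27 higher, while scaling to reads in peaks called 27 in each direction. Leaving out WT replicate 1 left 54 calls and leaving out Ogg1-/- replicate 1 left 59. The same WT libraries served all 3 knockouts, so their lists are not independent of each other.

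The peak with the smallest p was intergenic, 6381 bp from the lncRNA gene A730006G06Rik (chr17:48096759-48097159), with 30 CpG. It had 8.05, 27.7 and 12.1 normalised reads in WT and none in any Ogg1-/- library. Mutyh-/- libraries gave 1.64, 16.6 and 6.08, and DKO libraries 1.70, 21.9 and 20.5. Against a floor of 3 reads over the Ogg1-/- group, the loss was at least 15.4-fold (adjusted p = 0.176, lower in 3 of 3 pairs), and both other knockouts overlapped WT. Without Ogg1-/- reads this window entered through libraries of other genotypes, so the bound is a description only.

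Dmbx1, a homeobox gene of the developing midbrain, was next (chr4:115939525-115939925, 1 bp from the start site). WT libraries held 9.39, 27.7 and 26.8 normalised reads and Ogg1-/- libraries 0, 9.42 and 0. In Mutyh-/- the values were 3.28, 24.9 and 31.4, and in DKO 7.65, 13.6 and 25.99. Ogg1-/- replicate 2 just exceeded WT replicate 1, so these groups overlapped, though the other 2 Ogg1-/- libraries had no read. The log2 fold change was -3.21 ± 0.77 (3 of 3 pairs, adjusted p = 0.189) in Ogg1-/-, against -0.40 in Mutyh-/- and -0.43 in DKO (adjusted p = 0.803 and 0.987).

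Nr5a2, a nuclear receptor of liver and pancreas, had 14.8, 31.7 and 22.8 in WT and 2.97, 9.42 and 3.76 in Ogg1-/- (log2 fold change -1.99 ± 0.56, adjusted p = 0.239). Foxl1, a forkhead factor of gut mesenchyme, had 13.4, 25.7 and 48.3 in WT and 0, 21.2 and 5.64 in Ogg1-/- (-2.34 ± 0.66, adjusted p = 0.239). T (brachyury), the factor that specifies mesoderm, had 24.1, 14.9 and 16.1 in WT and 0, 9.42 and 4.70 in Ogg1-/- (-2.28 ± 0.70, adjusted p = 0.321). The Ogg1-/- libraries were wholly below WT at Nr5a2 and T and overlapped WT at Foxl1, and all 3 peaks were lower in 3 of 3 pairs. The T call was lost without WT replicate 1, without replicate number 1 of every genotype and with only the 2 genotypes in the fit. Nkx3-2 (skeleton), Foxe1 (thyroid) and Pou4f1 (sensory neurons) were also lower, by -2.29, -1.75 and -1.92 on the log2 scale. Of the 52 named peaks called in Ogg1-/-, the 7 whose call held under all alternatives tried were those of Dmbx1, Foxl1, A730006G06Rik, Smok4a and 2700054A10Rik, 1 of 1700026F02Rik and 1 Mir101c repeat.

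Wnt signalling genes ranged from ligands to receptors. Suz12 at Fzd5, a Wnt receptor, was 13.4, 12.9 and 22.8 in WT and 0, 9.42 and 0 in Ogg1-/- (log2 fold change -2.95 ± 0.87, adjusted p = 0.286). At Wnt3, a ligand, it was 10.7, 21.8 and 12.1 in WT and 0, 10.6 and 2.82 in Ogg1-/- (-2.10 ± 0.73, adjusted p = 0.364). At these peaks every Ogg1-/- library was below every WT library. The second Wnt3 peak (chr11:103774292-103774692, 142 bp from the start site) was not called in Ogg1-/-. The ligand Wnt10b (-2.32), the secreted Wnt inhibitor Sfrp1 (-2.20) and the ligand Bmp2 (-1.80) were the other lower DERs of the list of Wnt, BMP, FGF and hedgehog genes, 5 of its 22 peaks against 10.8% of all peaks. In Mutyh-/- the list had 1 lower DER, Bmp2 (-1.75, adjusted p = 0.372), against 11.2% of all peaks, and in DKO none. Its median log2 fold change was -0.67, -0.64 and -0.12 in Mutyh-/-, Ogg1-/- and DKO, beside -0.63, -0.57 and -0.07 for all peaks. TMM scaling left 0, 3 and 0 of these peaks called lower, and the fit without the block left 0, 1 and 0.

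The 14 higher DERs of Ogg1-/- had a median CpG count of 6, and 1 was at a non-repeat promoter. The peak of 2700054A10Rik was at 0 in WT and at 10.9, 10.6 and 15.97 in Ogg1-/-, at least 10.2-fold higher (adjusted p = 0.199). A peak 45626 bp from 1700026F02Rik (chr8:71131384-71131784) was at 0 in all WT and all DKO libraries and at 13.9, 10.6 and 8.46 in Ogg1-/-, at least 8.96-fold higher than WT (adjusted p = 0.239). Mutyh-/- had 13.1, 3.11 and 0 there. Smok4a, a sperm motility kinase gene with close copies nearby, had 0, 0.99 and 0 in WT and 13.9, 7.07 and 40.4 in Ogg1-/-. In all 3 peaks the Ogg1-/- and WT libraries did not overlap. With few or no WT reads these windows, too, entered through knockout libraries, so the lack of overlap is a description only.

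**Figure D2:**
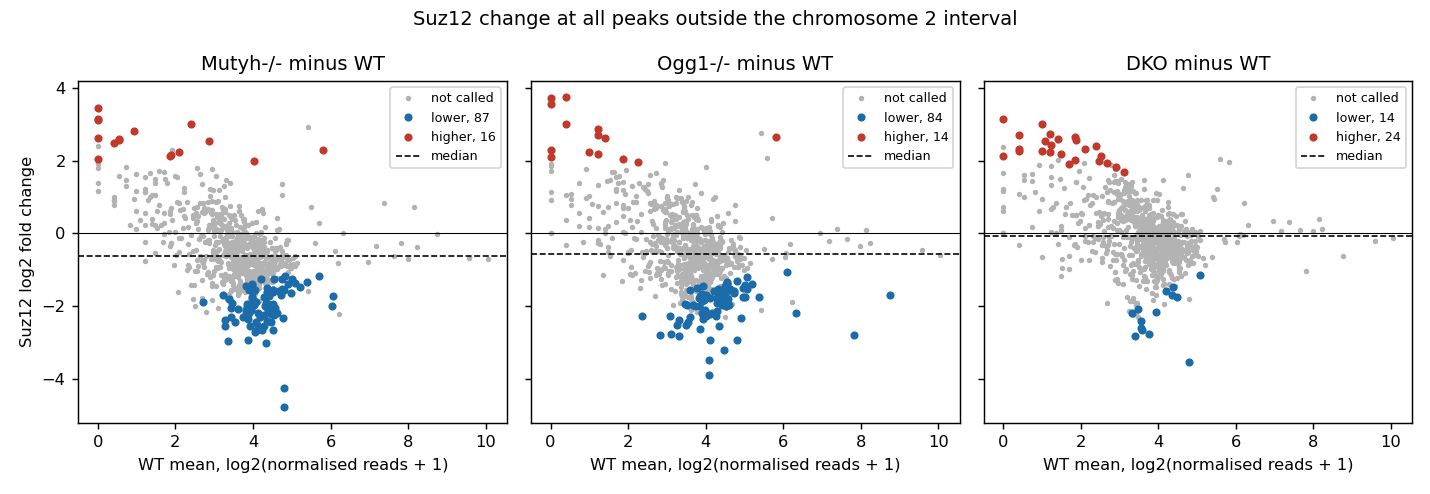
Fitted log2 fold change of Suz12 (y) against the WT mean as log2(normalised reads + 1) (x) for the 771 peaks in each knockout, with lower DERs in blue, higher DERs in red and the median as a dashed line. The WT mean enters both axes. Medians lie at -0.63, -0.57 and -0.07, and most higher DERs sit at low WT levels.

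In DKO neurons few Suz12 peaks were called, among them a higher one annotated to the promoter of Cyp1b1, and the direction with more calls turned when DKO replicate 3 was left out. There were 38 DERs (4.9% of 775), 14 lower at 12 genes (1.81%) and 24 higher at 24 genes (3.1%). Without the block the counts were 7 lower and 12 higher, 15 of these 19 being among the 38, and TMM scaling gave 4 lower and 21 higher. No adjusted p was under 0.05 in limma with the block (lowest 0.985), and 38 peaks had an unadjusted p under 0.05. The median log2 fold change was -0.07, or 0.14 without WT replicate 1, and 52.0% of peaks were below 0. Leaving out DKO replicate 1 or DKO replicate 3 left 25 calls each, and without replicate 3 the split turned to 16 lower and 9 higher.

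Cyp1b1, a cytochrome P450 of steroid and retinoid metabolism, had the smallest p among non-repeat promoter peaks outside chromosome 18 (chr17:79713937-79714337, 282 bp from the nearest annotated start site). Peaks of chromosome 18, among them the called one of Rax, were left out of this ranking. Its peak had 0, 2.97 and 0 normalised reads in WT and 7.65, 11.5 and 18.1 in DKO. Mutyh-/- had 0, 6.21 and 5.07, and Ogg1-/- 0, 4.71 and 4.70. Every DKO library exceeded every library of the other genotypes. With few WT reads this window, too, entered through knockout libraries. The lack of overlap and the fold change are therefore a description only, under every alternative fit. The log2 fold change of DKO against WT was 3.01 ± 0.93 (higher in 3 of 3 pairs, adjusted p = 0.985), and those of Mutyh-/- and Ogg1-/- were 1.15 and 1.01 (adjusted p = 0.554 and 0.634). The other Cyp1b1 peak (chr17:79714761-79715161) spans a start site. It had 0, 5.94 and 9.40 in WT and 0, 20.9 and 9.45 in DKO, which overlapped, and was not called (0.55 ± 1.11, adjusted p = 0.987). The call of the first peak held under all 18 alternatives in which it was present, as did those of 2 Mir101c repeats, 3 of 28 named peaks called in DKO.

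Developmental transcription factors made up 6 of the 24 higher DERs of DKO, 3.47% of that list's peaks against 3.1% of all peaks. The genes named below are not all on that list, Hoxb13 being on the separate Hox list. Tfap2e, an AP-2 family factor, had 4.02, 3.96 and 0 in WT and 11.9, 15.7 and 23.6 in DKO (intron, log2 fold change 2.58 ± 0.90, adjusted p = 0.985). Vax2os, the antisense transcript of the eye homeobox gene Vax2, had 0, 3.96 and 0 in WT and 6.80, 10.4 and 15.8 in DKO (2.74 ± 0.93, adjusted p = 0.985). Both had no overlap between WT and DKO, and both calls were lost without DKO replicate 3. With few WT reads these windows may have entered through knockout libraries, so the lack of overlap is a description only. The second peak of Tfap2e (chr4:126735339-126735739) had 30.8, 38.6 and 25.5 in WT and 19.5, 43.8 and 30.7 in DKO and was not called (-0.07 ± 0.50, adjusted p = 0.987). Hoxb13, the posterior end of the Hoxb cluster, had 0, 7.92 and 0 in WT and 4.25, 17.7 and 21.3 in DKO (2.65, adjusted p = 0.985), and Tbx1, of the pharyngeal arches, had 0, 2.97 and 10.7 against 6.80, 18.8 and 18.1 (1.99, adjusted p = 0.985). These last peaks overlapped between WT and DKO, yet each pair was higher in DKO. Of 5 peaks at Tbx1, 1 was called higher in DKO and none lower. Rax (eye field), Nfatc1 (heart valves and T cells) and Tlx1 (spleen) were also higher, by 2.54, 1.69 and 1.83 on the log2 scale.

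Lower DERs of DKO included 4 non-repeat promoters among 14. Tbx18, a T-box factor of heart and urinary tract, was a lower DER in each knockout (chr9:87729983-87730383, 45 CpG). WT had 26.8, 30.7 and 40.3 normalised reads, Mutyh-/- 5.74, 16.6 and 17.2, Ogg1-/- 6.94, 17.7 and 18.8, and DKO 12.7, 14.6 and 14.2. All knockout libraries lay below all WT libraries. The log2 fold changes were -1.36, -1.21 and -1.16, each with a SE of 0.51 (adjusted p = 0.34, 0.388 and 0.985), all 3 set against the same WT libraries, and each call was lost without the block, with TMM scaling and without WT replicate 1. Arhgef17, a guanine nucleotide exchange factor, had 17.4, 24.8 and 21.5 in WT and 1.70, 10.4 and 7.88 in DKO (-1.76, adjusted p = 0.985), with no overlap. The promoter peak of Barhl2, a homeobox gene of retina and spinal cord, had 5.36, 27.7 and 25.5 in WT and 0.85, 9.39 and 6.30 in DKO (-1.70, adjusted p = 0.985), and these overlapped. Of 8 peaks at Mroh2a, 3 were lower DERs in DKO.

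**Figure D3:**
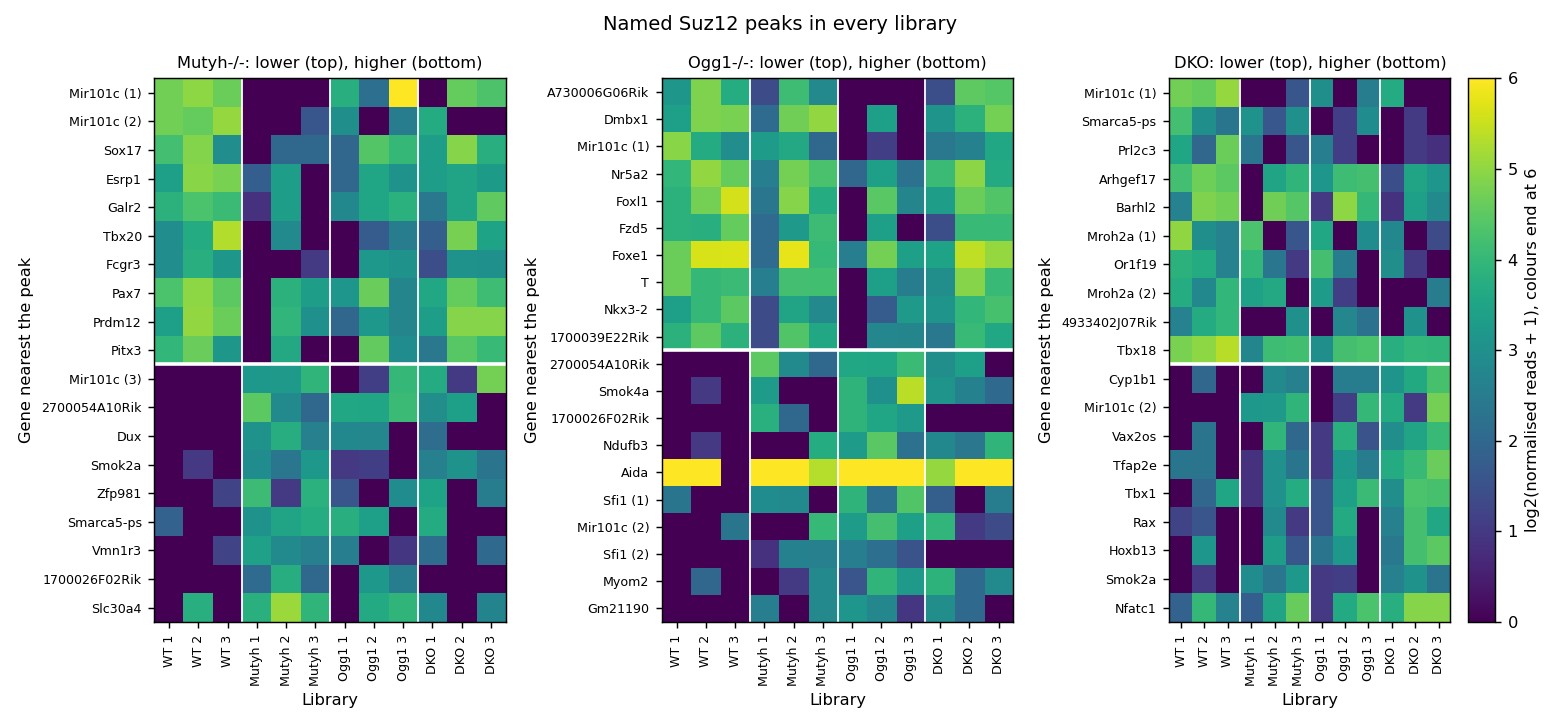
Suz12 signal, as log2(normalised reads + 1), in each of the 12 libraries for up to 10 lower (top) and 10 higher (bottom) named peaks of each knockout, by nearest gene and sorted by p. Dark cells are libraries with no or few reads. The A730006G06Rik peak is at 0 in all 3 Ogg1-/- libraries and the first Mir101c repeat at 0 in all 3 Mutyh-/- libraries.

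Set directly against the single knockouts, DKO had more higher than lower DERs, while the sums over promoters were within the spread between replicates. Over the 469 non-repeat promoter peaks the log2 ratio of mean sums was 0.43 for DKO against Mutyh-/- and 0.41 against Ogg1-/- (exact permutation p = 0.5 for each, higher in 3 of 3 pairs). Against Mutyh-/- there were 88 DERs (11.4%), 77 higher (9.94%) and 11 lower (1.42%) in DKO, and against Ogg1-/- 56 (7.23%), 51 higher (6.58%) and 5 lower (0.645%). By limma with the block neither comparison had an adjusted p under 0.05 (lowest 0.429 and 0.555), and 88 and 56 peaks had an unadjusted p under 0.05. Without the block the calls were 20 higher and 10 lower against Mutyh-/-, and 17 and 3 against Ogg1-/-. TMM scaling gave 32 higher and 16 lower, and 22 and 10. Of the 469 non-repeat promoter peaks, 53 and 29 were higher in DKO and none was lower. Leaving out Mutyh-/- replicate 1, DKO replicate 1 or DKO replicate 3 left 47, 49 or 46 calls against Mutyh-/-, and leaving out Ogg1-/- replicate 1 or DKO replicate 1 left 34 or 31 against Ogg1-/-. At Sox17 the log2 difference DKO minus Mutyh-/- was 2.67 (adjusted p = 0.429), a value that uses the same Mutyh-/- libraries as the comparison that named the gene.

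A difference over the 4 genotypes at once was tested with an F test, which gave 62 peaks (8.0%) with p under 0.05 and none after adjustment in limma (lowest 0.389), with 20 without the block and 35 with TMM scaling. The non-additive contrast, DKO minus Mutyh-/- minus Ogg1-/- plus WT, asks whether the DKO value differs from the sum of the changes in the single knockouts. It had p under 0.05 at 140 peaks (18.1%), 128 above 0 and 12 below, and none passed adjustment in limma with the block (lowest 0.201). Without the block 39 peaks were past 0.05, 29 above 0 and 10 below, and with TMM scaling 57, 29 above and 28 below. Leaving out WT replicate 1 or DKO replicate 1 left 90 or 92, and edgeR with the authors' factors gave 74, of which 1 passed adjustment. The contrast was 4.97 at Tbx20 (adjusted p = 0.201) and 3.79 at Prdm12 (adjusted p = 0.201), where both single knockouts were lower DERs and DKO was not called. Both peaks were named from calls in the same libraries, so the contrast there is a description and no separate support, as it is at 1700026F02Rik. Prdm12 had 9.39, 31.7 and 24.2 normalised reads in WT, 0, 14.5 and 7.10 in Mutyh-/-, 2.97, 8.24 and 5.64 in Ogg1-/- and 9.35, 29.2 and 29.1 in DKO. At the 1700026F02Rik peak described above it was -5.51 (adjusted p = 0.201).

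Promoters and repeats differed in where the calls fell. Of the 469 non-repeat promoter peaks 66 were lower and 2 higher in Mutyh-/-, 62 and 1 in Ogg1-/-, and 4 and 9 in DKO. Their median log2 fold changes were -0.75, -0.62 and -0.07, and in the 3 pairs of Mutyh-/- with WT the medians were -1.41, -0.32 and -0.51. For the pairs of Ogg1-/- they were -1.05, -0.32 and -0.49, and for those of DKO -0.21, -0.18 and 0.12. The pair of replicate 1, the thinnest libraries, had the lowest median in each knockout. The 79 repeat peaks had medians of 0.24, 0.00 and 0.02, with 4 lower and 5 higher DERs in Mutyh-/-, 8 and 4 in Ogg1-/- and 2 and 5 in DKO. With TMM scaling the promoter medians became -0.24, -0.12 and 0.08 and the repeat medians 0.67, 0.22 and 0.18, so by medians promoters lay below repeats in each knockout on both scalings, while the sign of the promoter median turned in DKO. Summed signal did not show this order: the log2 ratio to WT over repeats was -0.17 in Mutyh-/-, -0.69 in Ogg1-/- (lower in 3 of 3 pairs) and -0.21 in DKO, against -0.54, -0.52 and -0.10 over promoters, so that repeats were lower than promoters in Ogg1-/- and DKO by this measure. Relative to the median of all peaks, promoters were at -0.12, -0.05 and -0.01 in the reported fit and at -0.15, -0.03 and -0.01 with TMM scaling, and repeats were at 0.86, 0.57 and 0.09 and at 0.76, 0.31 and 0.09.

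In the reported fit, peaks with up to 5 CpG had medians near or above 0. Peaks with 16 or more had medians below 0 in each bin of the single knockouts. The 88 peaks with 6 to 15 CpG had medians of -0.02 in Mutyh-/-, -0.38 in Ogg1-/- and -0.10 in DKO. In DKO the split was not uniform, and the 143 peaks with 26 to 35 CpG had a median of 0.07. In the 142 peaks with up to 5 CpG the median log2 fold change was 0.20 in Mutyh-/-, 0.00 in Ogg1-/- and 0.07 in DKO. In the 312 peaks with 36 to 76 CpG it was -0.83, -0.66 and -0.13. Mutyh-/- had 2 lower and 11 higher DERs in the former bin and 43 and 0 in the latter, and Ogg1-/- had 3 and 6 against 40 and 0. DKO had 4 and 6 against 3 and 3. All peaks together had 11.2%, 10.8% and 1.81% lower DERs in Mutyh-/-, Ogg1-/- and DKO. The split depends on the scaling. Over the 541 peaks with more than 15 CpG, Mutyh-/- had 78 lower and 2 higher DERs, and 21 and 5 with TMM scaling. Ogg1-/- had 70 and 2, and 16 and 13 with TMM scaling. TMM medians there were -0.27, -0.15 and 0.08 in Mutyh-/-, Ogg1-/- and DKO. Without the block 19 and 7 of these peaks were lower in the single knockouts and none was higher. WT levels also differed by call, though the WT values enter the call itself. The lower DERs of Mutyh-/- and Ogg1-/- had median WT levels of 18.4 and 18.5 normalised reads, the higher DERs 0.671 and 1.16, and the uncalled peaks 11.4 in both. The part of the WT level in this division was not tested.

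**Figure D4:**
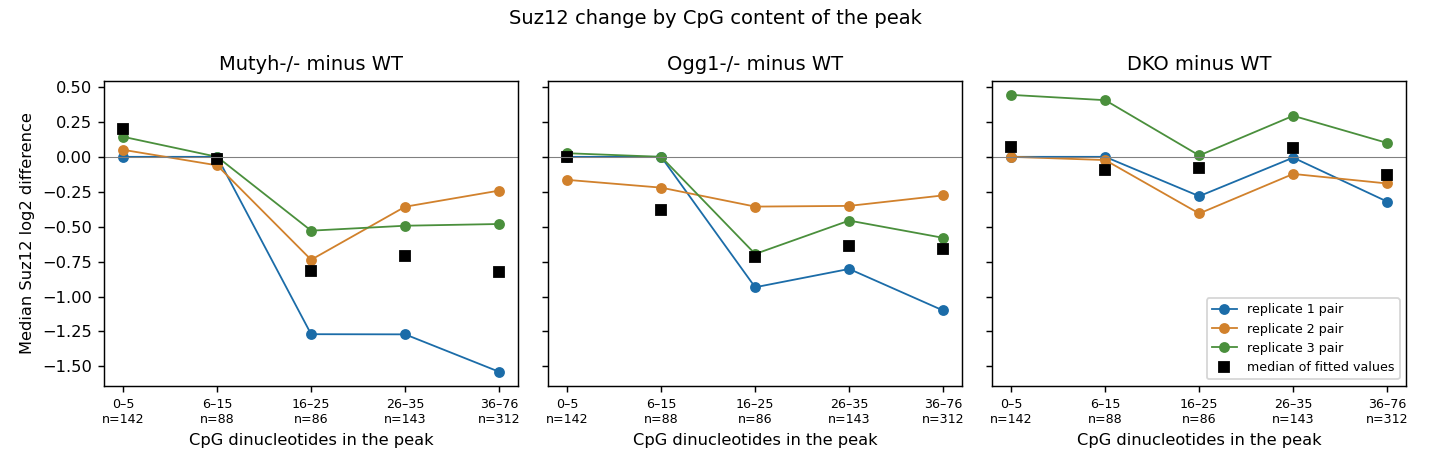
Median Suz12 log2 difference between knockout and WT in 5 bins of CpG count per peak, for each same-numbered pair (coloured lines) and for the fitted values (black squares), with the number of peaks n under each bin. In Mutyh-/- and Ogg1-/- the bins from 16 CpG up have fitted medians between -0.83 and -0.64, and in DKO between -0.13 and 0.07.

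Among gene families, developmental transcription factors other than Hox were the largest list, with 173 peaks at 115 genes. Lower DERs numbered 26 (15.0%, against 11.2% of all peaks) in Mutyh-/-, 24 (13.9%, against 10.8%) in Ogg1-/- and 3 (1.73%, against 1.81%) in DKO, and higher DERs 0, 0 and 6. Of the non-repeat promoter peaks 14.1% and 13.2% were lower DERs in Mutyh-/- and Ogg1-/-, so the list was near the share of promoters as a whole. The list's median log2 fold changes were -0.83, -0.62 and -0.10, beside -0.63, -0.57 and -0.07 for all peaks. With TMM scaling the list had 10, 6 and 0 lower and 1, 3 and 5 higher DERs and medians of -0.27, -0.09 and 0.07, and without the block 8, 3 and 0 lower DERs. A few of its entries, such as Vax2os and Foxl2os, are antisense transcripts of such factors. The 20 peaks at 19 Hox genes, which set position along the body axis, had no DER in Mutyh-/-, 3 lower in Ogg1-/- (Hoxb7, Hoxc13 and Hoxc9, by -1.78, -1.79 and -1.61) and 1 higher in DKO (Hoxb13), with medians of -0.70, -0.58 and -0.13. Their share of lower DERs was 0%, 15% and 0%, against 11.2%, 10.8% and 1.81% of all peaks. Without the block and under TMM scaling no Hox peak was lower in any knockout, and under TMM scaling 1 was higher in Ogg1-/- and 1 in DKO.

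Lists of genes of neuronal function held few Suz12 peaks. A list of ion channel and transmitter receptor genes, drawn up by symbol and so not complete, had 5 peaks, of which 2 were lower in Ogg1-/- (against 10.8% of all peaks), among them that of the potassium channel gene Kcna7 (-1.64, adjusted p = 0.388), and none of the 5 was called in Mutyh-/- or DKO or, without the block or under TMM scaling, in Ogg1-/-. The galanin receptor gene Galr2, a lower DER in Mutyh-/- described above, is not on this list. Outside the list, and chosen after its values were seen, 1 of 8 peaks at Trpm8, a cold-sensing ion channel gene, had 8.05, 16.8 and 16.1 normalised reads in WT and 0, 2.07 and 1.01 in Mutyh-/-, without overlap (chr1:88290662-88291062, -2.93 ± 1.02, adjusted p = 0.34). Of 3 axon guidance peaks 1, at the semaphorin receptor gene Plxnd1, was higher in Mutyh-/- (2.53 ± 1.14, adjusted p = 0.369), with 18.8, 0 and 0 normalised reads in WT and 9.02, 17.6 and 19.3 in Mutyh-/-. WT replicate 1 lay within the Mutyh-/- range, so these groups overlapped. Neither the 2 cadherin peaks, nor the 3 peaks at glial and vascular marker genes, nor the 1 peak at a PRC2 subunit gene was called in any knockout. The 12 neuronal markers listed had no Suz12 peak in NeuN+ nuclei.

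The smallest p of any peak in Mutyh-/- lay in repeated sequence. The 19 peaks annotated to Mir101c all lay in 1 stretch of repeats at chr9:3000223-3038393, and none of them stands for the microRNA itself. One of them (chr9:3035854-3036254) had 25.5, 30.7 and 24.2 normalised reads in WT and none in any Mutyh-/- library, at least 28.0-fold lower (adjusted p = 0.134). Ogg1-/- libraries gave 12.9, 3.53 and 65.8 there, and DKO libraries 0, 23.0 and 18.9. Without Mutyh-/- reads this window entered through libraries of other genotypes, so its bound is a description only. Another (chr9:3015132-3015532) had 25.5, 22.8 and 32.2 in WT, 0, 0 and 2.03 in Mutyh-/-, 6.94, 0 and 4.70 in Ogg1-/- and 11.9, 0 and 0 in DKO, with all knockout libraries below all WT libraries (log2 fold changes -4.25, -2.95 and -3.55, all against the same WT libraries). The direction was the opposite at a further window: the peak at chr9:3028619-3029019 had no read in WT, 8.20, 8.29 and 14.2 in Mutyh-/- and 11.9, 1.04 and 25.99 in DKO, at least 8.35-fold and 10.6-fold higher. Without WT reads this window entered through knockout libraries, so its fold changes are a description only. Reads from the copies in this stretch of repeats cannot be assigned with certainty. The list of microRNA genes, 26 peaks at 7 genes with these 19 included, had 4 lower and 1 higher DERs in Mutyh-/-, 3 and 1 in Ogg1-/-, and 1 and 1 in DKO, the lower ones being 15.4%, 11.5% and 3.85% of the list against 11.2%, 10.8% and 1.81% of all peaks. Over the 19 windows the median log2 fold change was 0.35 in Mutyh-/-, -0.64 in Ogg1-/- and 0.03 in DKO.

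The histone marks measured in the same nuclei could be read at part of the Suz12 peaks: 191 overlapped an H3K27me3 peak and 233 an H3K4me3 peak by at least 1 bp. At the lower DERs of Mutyh-/- 15 of 87 overlapped an H3K27me3 peak, whose median log2 fold change was -0.41 with 9 of the 15 below 0, beside -0.08 and 108 of 191 at all overlapping Suz12 peaks. With an overlap of at least 200 bp this was lost, the median being -0.0014 with 5 of 10 below 0. For Ogg1-/- 18 of 84 overlapped, with a median of -0.24 and 14 below 0, beside -0.02 and 98 of 191, and with the longer overlap -0.39 and 10 of 12. For DKO 1 of 14 overlapped. The higher DERs had H3K27me3 medians of 0.75 (5 of 16 overlapped), 0.59 (5 of 14) and 0.33 (4 of 24). H3K4me3 at the lower DERs had medians of -0.06 (25 of 87) and -0.01 (23 of 84) in Mutyh-/- and Ogg1-/-, beside 0.01 and 0.21 at all overlapping peaks. At the higher DERs H3K4me3 had medians of 0.66 (8 of 16), 0.98 (5 of 14) and 0.32 (7 of 24), so both marks had medians above 0 there. At Tbx15, a T-box factor of limb and skin with lower Suz12 in both single knockouts, H3K27me3 was 4.38, 12.2 and 11.2 in WT, 6.09, 1.11 and 7.99 in Mutyh-/- and 0.99, 18.8 and 0 in Ogg1-/-, and the groups overlapped (log2 fold changes -0.90 and -1.48, adjusted p = 0.913 and 0.891). At Cyp1b1 H3K27me3 was 1.095, 13.3 and 15.5 in WT and 7.65, 7.75 and 12.8 in DKO, which overlapped (log2 fold change 0.36, adjusted p = 0.991). At the Plxnd1 peak H3K27me3 was 0, 0 and 10.3 in WT and 12.2, 7.74 and 4.00 in Mutyh-/- (1.89, adjusted p = 0.804), with overlap. Gata2, a lower Suz12 DER in Mutyh-/-, had H3K27me3 values of 0, 15.5 and 6.03 in WT, 2.03, 17.7 and 17.98 in Mutyh-/- and 8.92, 25.1 and 16.4 in Ogg1-/-, the opposite sign to Suz12 (1.07 and 1.76, adjusted p = 0.902 and 0.774).

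**Figure D5:**
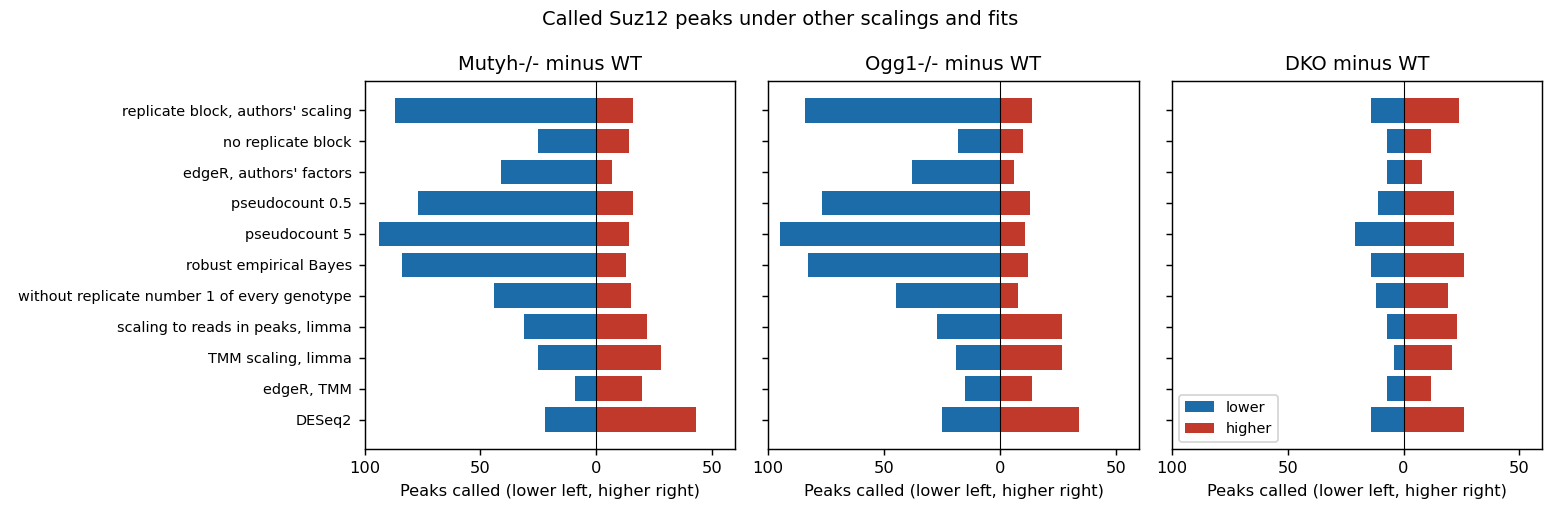
Number of Suz12 peaks called lower (blue, left) and higher (red, right) in each knockout against WT, under the reported fit (top) and 10 other scalings, tests and sets of libraries. With the authors' scaling the lower calls prevail in Mutyh-/- and Ogg1-/- (87 and 84 in the reported fit), and with TMM or DESeq2 scaling the split is close to even or turned.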

How the data were processed

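Suz12 ChIP-seq of NeuN+ hippocampal nuclei was analysed in 12 libraries, 3 per genotype, grouped by the labels. The authors aligned 75-bp reads to GRCm38 with Bowtie2 (2.3.5.1), called peaks with SICER/epic2 (FDR 0.05, windows of 50 bp, 2 gaps), kept peaks present in at least 2 of 3 replicates, and counted and scaled reads in windows, of 401 bp in all but 1 of the peaks used, with DiffBind (3.10.1) and edgeR (3.42.4). ChIPseeker (1.36) gave the nearest gene. The deposited signal values are these normalised reads. In each library 100% of values were whole multiples of 1 step (tolerance 1e-06), so whole reads were recovered by division.

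Here log2(signal + 1) was fitted with limma (3.58.1, R 4.3.3) for all 775 peaks, with genotype and replicate number as terms and Benjamini-Hochberg adjustment, and tested on simulated data. The adjusted p-values beside single peaks are from this fit, and the same fit was made for the H3K27me3 and H3K4me3 tables. Fold changes are on the log2(signal + 1) scale, which understates the change at low peaks. The non-additive contrast was added after the data were seen. Sums were compared by exact permutation tests (scipy 1.17.1). Same-numbered libraries correlated at r = 0.382, 0.188 and 0.106 between WT and Mutyh-/-, 0.286, 0.228 and 0.0759 between WT and Ogg1-/-, and 0.208, 0.182 and 0.0439 between WT and DKO, so the numbers met the criterion of over 0.1 in every pair for Mutyh-/- only. No label says what a number shares. PCR reads without molecular identifiers are not independent molecules, so floors cover counting error only.

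Named peaks were, per comparison, up to 10 lower and 10 higher DERs with the smallest p whose 3 pairs shared the sign, any peak with an adjusted p under 0.05 and every DER of the gene lists, 103 in all, a few of which are not reported here. The members and lists were chosen with earlier results of these data known. Alternatives were no block, other pseudocounts, filters and scalings, edgeR (4.0.16) and DESeq2 (1.42.0) on the recovered reads, other sets of libraries, and leaving out each library. A named peak was tried under 17 to 19 of them, fewer where a filter for repeats or low levels removed it.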

Additional observations from a re-analysis of the deposited data

How the results depend on the processing

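With the replicate number as a block, 103, 98 and 38 DERs were called for Mutyh-/-, Ogg1-/- and DKO against WT, 88 and 56 for DKO against Mutyh-/- and Ogg1-/-, and 62 peaks by the F test. The fit with no replicate block gave 39, 28, 19, 30, 20 and 20, and the pairing by number rests on the correlations given above, with 9 of 12 libraries closest to one of their own number. TMM scaling in limma gave 53, 46, 25, 48, 32 and 35, and scaling to reads in peaks 53, 54, 30, 54, 32 and 35. With edgeR the counts were 29, 29, 19, 28, 16 and 20 (TMM) and 48, 44, 15, 39, 29 and 20 (the authors' factors). DESeq2 gave 65, 59, 40, 58, 47 and 65, with 8, 3, 0, 0, 2 and 2 past an adjusted p of 0.05, and edgeR with the authors' factors gave 1 for Mutyh-/- against WT. The overall median log2 fold change moved to -0.085, -0.060 and 0.031 for Mutyh-/- with limma TMM, edgeR TMM and DESeq2, and to -0.092, -0.16, -0.026 and -0.019 for Ogg1-/- with limma TMM, reads in peaks, edgeR TMM and DESeq2. Fitting only the 2 genotypes compared gave 53 for Ogg1-/-. Dropping the lowest 25% of peaks gave 18 for DKO and 55 for DKO against Mutyh-/-. Without replicate number 1 of every genotype, chosen after seeing the data, the counts were 59, 53, 31, 55, 42 and 33. Leaving out each library gave 50 to 111, 54 to 96, 25 to 42, 46 to 88, 31 to 74 and 47 to 77, and medians for the 3 knockouts of -0.80 to -0.40, -0.73 to -0.40 and -0.19 to 0.14. The log2 ratio of summed signal for DKO was -0.09 and turned to 0.32 on unscaled reads, 0.10 without WT replicate 2 and 0.19 without DKO replicate 1, and the leave-one-out range was -0.34 to 0.19. Mutyh-/- lower DERs with H3K27me3 below 0 numbered 9 of 15, and 5 of 10 with an overlap of at least 200 bp, where the median moved from -0.41 to -0.0014. Of 2402 values of named peaks under these alternatives, 1583 kept the call, 819 lost it and 0 changed sign past the threshold. The cause of these shifts was not tested. With 5445 to 21742 reads over 771 peaks per library, many values rest on few reads.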
